A study of Mus musculus with 8 samples.

Results

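The interferon-inducible GTPases described here are 10 paralogous genes of 2 families. They are the guanylate-binding proteins Gbp2, Gbp3, Gbp4, Gbp5, Gbp6, Gbp7 and Gbp9 and the immunity-related GTPases Irgm1, Igtp and Iigp1. Each was taken by its symbol from a table of 41128 genes, and all 10 passed the low-count filter that left 15771 genes for testing. The group was proposed with earlier results of the LAQ comparison in view, Gbp4's difference among them, so the members were chosen on measured values. Their differences between the groups are therefore given as a description, without a p of their own.

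The material was corpus callosum, the white-matter tract between the cerebral hemispheres, of PLP-150Q mice, and poly(A) RNA was sequenced. In these mice the promoter of the myelin proteolipid protein gene drives an N-terminal fragment of mutant huntingtin in oligodendrocytes. Both groups carried that transgene, and no group without it was analysed here. Treatment began at 3 months of age, lasted 2 months and ended with mice 5 months old. The LAQ group (libraries 5 to 8) received 5 mg/kg of LAQ, read here as laquinimod, an oral immunomodulator, and the control group (libraries 1 to 4) received purified water. The labels do not state that the 4 libraries of a group came from different mice, so the spread between libraries may be partly technical. The p-values rest on that spread, estimated in part across genes, and on counting error. They need not measure the spread between mice.

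Guanylate-binding proteins and immunity-related GTPases are among the most strongly interferon-induced proteins of mouse cells. Interferon gamma acts directly on promoters through the gamma-activated sequence (GAS), and type I interferon through the interferon-stimulated response element (ISRE). An ISRE without a GAS does not mark a gene as a target of type I interferon alone. The induced GTPases coat vacuoles that hold intracellular pathogens. Irgm1, Igtp (also called Irgm3) and Irgm2 are regulators that reside on the cell's own membranes and hold back the effectors Iigp1 (Irga6) and Tgtp1 and Tgtp2 (Irgb6).

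The promoter sequences are shown first, because members of both families carry the same interferon-response letters close to the transcription start. RefSeq promoter windows (GRCm38.p6, from 250 bases before to 50 after the start) matched 6 of the 10 members, namely Gbp2, Gbp3, Gbp5, Gbp7, Irgm1 and Igtp. Both strands were searched for the ISRE core GAAANNGAAA and for the GAS letters TTCNNNGAA, and capitals mark the matches, with overlapping matches running together. The stretches run 5′ to 3′ on the gene's strand. They are chr3:142620553-142620653 (plus strand) for Gbp2, chr3:142559934-142560034 (plus) for Gbp3, chr3:142530226-142530326 (plus) for Gbp7, chr3:142496754-142496894 (plus) for Gbp5, chr11:48871430-48871530 (minus) for Irgm1 and chr11:58199446-58199546 (plus) for Igtp. Irgm2 (chr11:58214867-58214967, plus), Tgtp1 (chr11:48992256-48992356, minus) and Tgtp2 (chr11:49064222-49064322, minus), which are family genes outside the 10, are added because their levels are set beside the members' further on.
Gbp2: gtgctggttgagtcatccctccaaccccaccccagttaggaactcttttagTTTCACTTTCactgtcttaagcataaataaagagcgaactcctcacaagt
Gbp3: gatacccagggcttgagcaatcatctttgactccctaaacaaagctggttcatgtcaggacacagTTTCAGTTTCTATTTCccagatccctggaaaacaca
Gbp7: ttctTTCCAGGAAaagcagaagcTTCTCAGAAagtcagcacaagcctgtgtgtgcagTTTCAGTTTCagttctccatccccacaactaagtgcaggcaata
Gbp5: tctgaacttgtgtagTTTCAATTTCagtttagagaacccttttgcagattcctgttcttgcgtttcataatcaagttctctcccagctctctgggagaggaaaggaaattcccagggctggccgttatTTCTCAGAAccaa
Irgm1: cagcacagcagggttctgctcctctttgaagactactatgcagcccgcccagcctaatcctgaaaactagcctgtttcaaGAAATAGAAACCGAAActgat
Igtp: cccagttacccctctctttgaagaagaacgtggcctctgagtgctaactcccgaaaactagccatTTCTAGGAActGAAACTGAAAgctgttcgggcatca
Irgm2: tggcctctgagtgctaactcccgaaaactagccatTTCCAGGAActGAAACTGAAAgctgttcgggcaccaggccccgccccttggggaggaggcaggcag
Tgtp1: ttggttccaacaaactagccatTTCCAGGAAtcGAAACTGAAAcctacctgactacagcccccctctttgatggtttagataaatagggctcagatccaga
Tgtp2: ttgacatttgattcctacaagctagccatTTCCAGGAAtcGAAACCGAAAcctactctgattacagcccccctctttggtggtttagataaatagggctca

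All 6 windows of members at their first RefSeq start held an ISRE match, while 3.44% of the 32851 windows of the table did. The match began 59 bases before the start in Gbp2, 53 in Gbp7, 34 in Igtp and 165 in Gbp5. Gbp3 (45 and 39 bases before) and Irgm1 (30 and 24 bases before) each held 2 overlapping matches. A further start of Gbp3 held neither motif. GAS letters, found in 8.30% of all windows, were present in Gbp5, Gbp7 and Igtp, so that 3 of 6 members held both motifs, beside 0.454% of all windows. In Igtp the motifs were 2 bases apart, and the same spacing occurred in Irgm2, Tgtp1, Tgtp2 and Gm12185. The nearest pair was 25 bases apart in Gbp7 and 71 in Gbp5, whose GAS match of that pair lies upstream of the printed stretch. Of 10 other family genes with a window, 7 held an ISRE match and 5 held both motifs. The windows of 9930111J21Rik2, Gm5431 and Irgq held neither. Paralogs share ancestry, so these windows are not independent, and a match of letters is not a measured binding site.

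**Figure D1:**
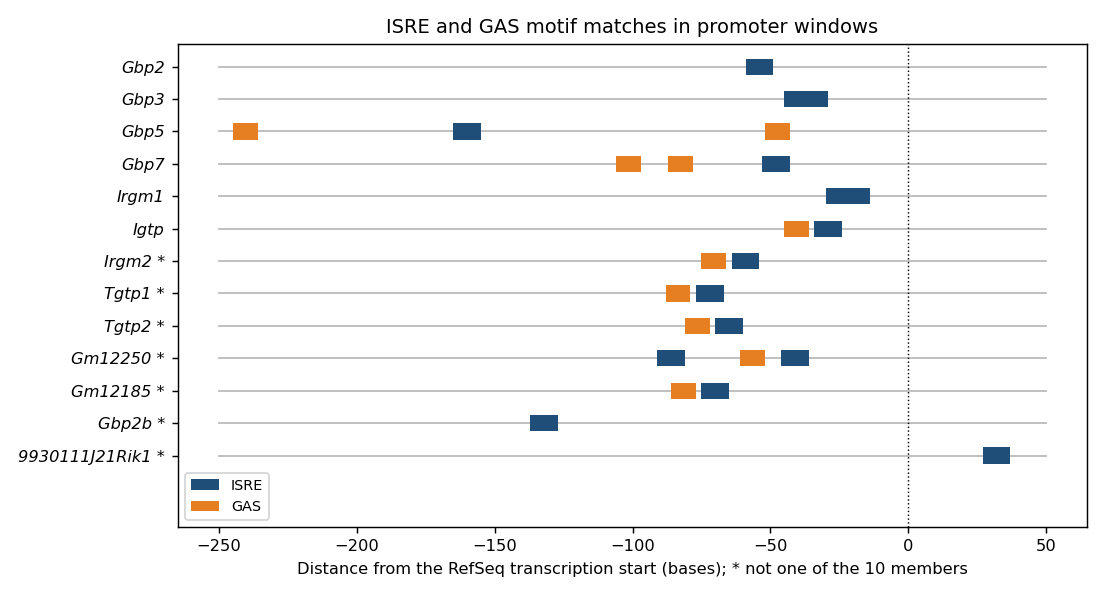
Positions of ISRE (blue) and GAS (orange) letter matches in the first RefSeq promoter window of the 13 family genes that held an ISRE match. The windows of 9930111J21Rik2, Gm5431 and Irgq, which held neither motif, are not drawn. The horizontal axis is the distance in bases from the transcription start and the grey line is the window searched. The first 6 rows are members, each with an ISRE match, and Igtp, Irgm2, Tgtp1, Tgtp2 and Gm12185 show GAS and ISRE side by side.

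The libraries held 8790749 to 12021429 counted reads, and the labels name no batch. Over all genes, edgeR's quasi-likelihood test called 0 of 15771 (0%) at an adjusted p under 0.05, with 1750 at an unadjusted p under 0.05, and limma voom also called 0. DESeq2 called 129 of 15403 (0.837%), and edgeR without LAQ 7 called 339 of 15898 (2.13%). LAQ 7 had the smallest summed level of 12 neuronal markers, 7749 CPM against 9701 to 10566 in the other 7 libraries. In bulk tissue, more cells of a type and more RNA per cell cannot be told apart.

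Transcripts of the whole group were scarce. The 10 members together took 50.5 to 58.4 CPM in the control libraries, CPM being counts put on one library size by TMM scaling, and 63.2 to 80.3 CPM in the LAQ libraries. The summed level was 57.6, 51.0, 50.5 and 58.4 CPM in control 1 to 4 and 80.3, 63.2, 64.6 and 78.3 CPM in LAQ 5 to 8. Every LAQ library thus lay above every control library in the sum, with means of 54.4 ± 4.23 and 71.6 ± 8.94 CPM (SD, n = 4 each) and a ratio of 1.32. Without Gbp4 the sums were 47.8 to 54.9 CPM in control and 58.3 to 71.3 CPM in LAQ, again apart, with a ratio of 1.24. Gbp4, 1 of the 10 genes, made up 5.34% of the members' counts in control and 10.5% in LAQ. Irgm1 was the most counted member in both groups, with 23.6% and 21.9%.

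By gene, 9 of the 10 members had a positive log2 fold change, LAQ against control, where 49.7% of all tested genes did. Their median was 0.30, beside -0.0012 over all tested genes, and 0.16 with the level of choroid plexus markers as a covariate. Choroid plexus markers summed to 391 to 2517 CPM in control and 1298 to 3674 CPM in LAQ, and ependymal markers to 26.1 to 39.7 and 43.2 to 60.2 CPM. Only Gbp4 was higher in every LAQ library than in any control library (1 of 10; 2.78% of all tested genes), and 0 of 10 were lower without overlap (3.61% of all). Since the members were picked with this contrast known, nothing is read from these counts.

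**Figure D2:**
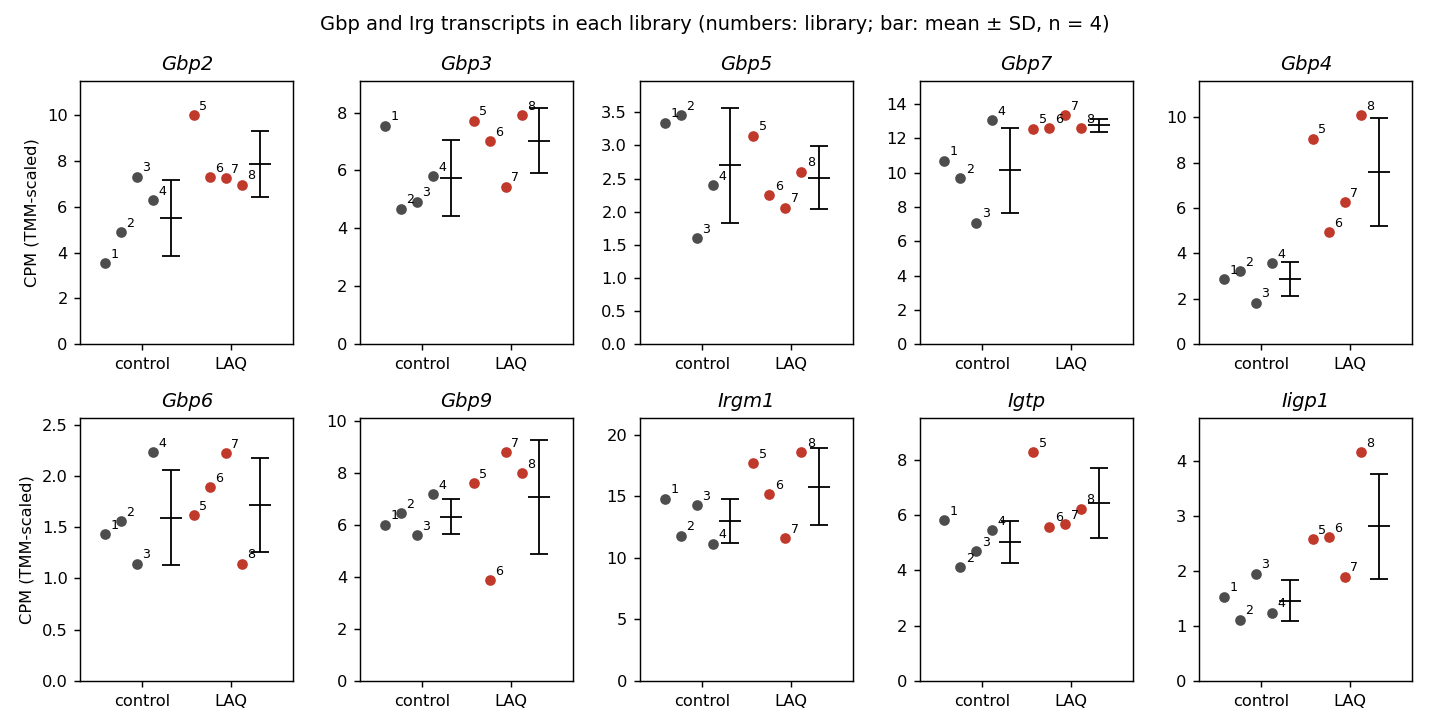
Level of each of the 10 GTPase transcripts in every library, in TMM-scaled CPM (linear vertical axes from 0); grey points are control libraries 1 to 4, red points LAQ libraries 5 to 8, and the bar gives mean ± SD (n = 4). Gbp4 is the gene whose groups do not overlap, while Gbp5 and Gbp6 have control and LAQ libraries interleaved.

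Between genes, levels were compared per kilobase of exonic sequence, as CPM per kb. In control, Igtp stood highest at 2.49 ± 0.38 CPM per kb (SD, n = 4), followed by Irgm1 (2.24 ± 0.31) and Gbp2 (2.19 ± 0.66), which differ by less than their spread. Gbp7 (1.81 ± 0.44) and Gbp3 (1.76 ± 0.40) formed a similar pair, and Gbp9 came next at 1.22 ± 0.13. Gbp5 (0.41 ± 0.13), Gbp4 (0.38 ± 0.10), Gbp6 (0.27 ± 0.08) and Iigp1 (0.25 ± 0.06) made up a low tier. Gbp5 and Gbp4, and likewise Gbp6 and Iigp1, differ by less than their spread, while the step from Gbp4 to Gbp6 is larger than the SD of either. In LAQ, Gbp4 stood at 1.01 ± 0.32 CPM per kb, above the other 3 genes of that tier and below Gbp9 at 1.37 ± 0.42. Igtp (3.19 ± 0.62), Gbp2 (3.13 ± 0.57) and Irgm1 (2.72 ± 0.54) were the highest.

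The members of the chromosome 3 cluster, Gbp5, Gbp7, Gbp3 and Gbp2, lie in that order from 142493978 (start of Gbp5) to 142638008 (end of Gbp2) on the plus strand in GRCm38 (GENCODE M21), all annotated as protein-coding. Gbp2, which is recruited to pathogen vacuoles, measured 3.54, 4.90, 7.32 and 6.29 CPM in control 1 to 4 and 10.003, 7.29, 7.25 and 6.97 CPM in LAQ 5 to 8. Control 3 lay within the LAQ range, and the log2 fold change was 0.52 ± 0.22 (SE). Gbp7, the most abundant guanylate-binding protein transcript by count, measured 10.7, 9.69, 7.09 and 13.1 CPM in control and 12.57, 12.60, 13.3 and 12.58 CPM in LAQ. The control libraries were spread widely and the LAQ libraries hardly at all, and control 4 lay inside the LAQ range (log2 fold change 0.32 ± 0.17, SE, or 0.20 without control 3). Gbp3 ranged from 4.68 to 7.55 CPM in control and 5.44 to 7.90 CPM in LAQ (0.28 ± 0.20, or 0.44 without control 1). Gbp5, known as an activator of the NLRP3 inflammasome, was the only member with a negative value (-0.11 ± 0.28). It measured 3.34, 3.45, 1.602 and 2.40 CPM in control and 3.14, 2.25, 2.06 and 2.60 CPM in LAQ, so both the highest and the lowest library were controls. Its sign turned without control 1 (0.01) or control 2 (0.02), and it stood at -0.28 without control 3, -0.23 without LAQ 5, -0.06 without LAQ 6 and -0.02 without LAQ 7. The 4 genes summed to 24.1 ± 2.88 CPM in the control libraries and to 30.2 ± 2.32 CPM with LAQ (SD, n = 4 each), without overlap.

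Gbp9, Gbp4 and Gbp6 lie on the minus strand of chromosome 5, between 105077630 and 105293698, and are protein-coding in the same annotation. Gbp4 measured 2.87, 3.23, 1.83 and 3.56 CPM in control 1 to 4 and 9.05, 4.95, 6.26 and 10.1 CPM in LAQ 5 to 8. The groups did not touch, LAQ 8 and LAQ 5 stood highest, and LAQ 6 came closest to the controls. In counts, control 4 had 43 reads (95% exact Poisson interval 31.1 to 57.9) and LAQ 6 had 55 (41.4 to 71.6), so the nearest libraries overlapped in counting error. The means were 2.87 ± 0.75 and 7.59 ± 2.39 CPM (SD, n = 4 each), a ratio of 2.64, and the fitted log2 fold change was 1.38 ± 0.27 (SE).

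The other members of the chromosome 5 cluster had smaller differences. Gbp9 measured 6.02, 6.46, 5.61 and 7.20 CPM in control and 7.62, 3.87, 8.81 and 8.01 CPM in LAQ. LAQ 6 was the lowest of all 8 libraries and the other 3 LAQ libraries were the highest (0.16 ± 0.23, SE). That value was 0.36 without LAQ 6, 0.10 without LAQ 8 and 0.03 without LAQ 7. Gbp6 ranged from 1.144 to 2.23 CPM in control and from 1.144 to 2.22 CPM in LAQ, and its value of 0.10 ± 0.31 (SE) turned negative without control 3 (-0.01) or LAQ 7 (-0.05). It stood at 0.33 without control 4, 0.25 without LAQ 8, 0.06 without LAQ 6 and 0.05 without control 1. Gbp8, a family gene of the same cluster below the filter, had 6, 1, 3 and 7 reads in control and 28, 11, 1 and 14 in LAQ, with LAQ 7 at the bottom. Gbp11, annotated there as a polymorphic pseudogene, stood at 0.16 ± 0.18.

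Reads of paralogs limit these values. Of the 100-base stretches of annotated transcripts, 64.5% of those of Gbp6 also occur in another gene, mainly Gm43302 and Gbp10, so the Gbp6 count is uncertain. The share was 10.01% for Gbp7 (mainly Gm43802), 5.16% for Igtp (Irgm2), 1.65% for Gbp9 and 1.64% for Gbp4, and under 1% for the other 5 members. At 50 bases it was 70.7% for Gbp6, 12.7% for Gbp7, 11.8% for Igtp, 8.05% for Gbp9 and 7.70% for Gbp4. Gbp4 also shares 61 exonic bases with Gbp8 and 60 with Gbp9 at the upstream end that these genes share. The read length, and how reads that match several genes were treated, are not given in the sources used here.

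Among the immunity-related members, the regulators Irgm1 and Igtp were more abundant than the effector Iigp1. Irgm1, on the minus strand of chromosome 11 from 48861968 to 48871683, measured 14.8, 11.8, 14.3 and 11.2 CPM in control and 17.7, 15.2, 11.6 and 18.6 CPM in LAQ. LAQ 7 lay among the controls and the other 3 LAQ libraries above all of them (0.28 ± 0.16, SE). Igtp, on the plus strand of chromosome 11 from 58199556 to 58207591, measured 5.83, 4.12, 4.69 and 5.46 CPM in control and 8.29, 5.58, 5.68 and 6.24 CPM in LAQ. Control 1 lay above 2 of the LAQ libraries, and LAQ 5 stood apart at the top (0.35 ± 0.19, or 0.21 without LAQ 5). The third regulator, Irgm2, whose annotated exons share 162 bases with Igtp, was outside the 10. It measured 4.20, 1.89, 4.12 and 3.14 CPM in control and 8.38, 4.23, 5.93 and 8.01 CPM in LAQ. All 4 LAQ values lay above the controls, LAQ 6 by little. The fitted value was 0.98 ± 0.28 (SE; adjusted p 0.259 by edgeR).

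The effector Iigp1, which disrupts vacuole membranes, is protein-coding and lies on the plus strand of chromosome 18 from 60376027 to 60392634. It was among the least abundant members, with 10 to 17 reads per control library and 23 to 40 per LAQ library. Its level was 1.53, 1.11, 1.94 and 1.24 CPM in control and 2.57, 2.61, 1.89 and 4.16 CPM in LAQ. LAQ 7 lay just below control 3, so the groups overlapped by that pair, and the means were 1.46 ± 0.37 and 2.81 ± 0.96 CPM (SD, n = 4 each). The fitted log2 fold change was 0.94 ± 0.31 (SE). Tgtp1 and Tgtp2, named above as effectors but outside the 10, had even fewer reads. Tgtp1 had 6, 5, 4 and 9 reads in control and 36, 11, 21 and 20 in LAQ (1.77 ± 0.42, adjusted p 0.181 by edgeR). Tgtp2 had 9, 1, 6 and 1 reads in control and 37, 13, 12 and 22 in LAQ (2.18 ± 0.62, adjusted p 0.259 by edgeR). In both, every LAQ library was above every control library, but 73.1% of the 100-base stretches of Tgtp1 and 76.8% of those of Tgtp2 occur elsewhere, mainly in each other. Their summed level was 0.668 to 1.43 CPM in control and 2.16 to 6.95 CPM in LAQ. That sum does not depend on how reads were divided between them, but reads lost for matching both are missing from it too.

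Of the remaining family genes, Irgq, a distant relative that is not known for interferon induction, was the most abundant at 124 ± 7.92 CPM in control and 103 ± 11.1 CPM in LAQ (-0.27 ± 0.09, SE; edgeR adjusted p 0.294). It was lower at an unadjusted p under 0.05, with LAQ 6 just inside the control range. 9930111J21Rik1 stood at 0.18 ± 0.49 and 9930111J21Rik2 at -0.30 ± 0.24. Of the 20 family genes listed beside the members, 17 were in the table and 7 passed the filter. Gm12250, Gm12185, Gm5431, Gm4951, F830016B08Rik, Gvin1, Gm4070, Irgc1 and Gbp8 had some reads. Gm12250 had 4 to 9 reads per control library and 5 to 11 per LAQ library, and Gm5431 had 1 to 5 and 1 to 3. The groups overlapped in both, unlike those of Tgtp1 and Tgtp2. Irgc1 had 3, 1, 2 and 4 reads in control and 0, 0, 1 and 0 in LAQ, too few for a comparison, and Gm4841 had 0 in all 8 libraries, where a count of 0 allows up to 0.247 to 0.343 CPM.

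**Figure D3:**
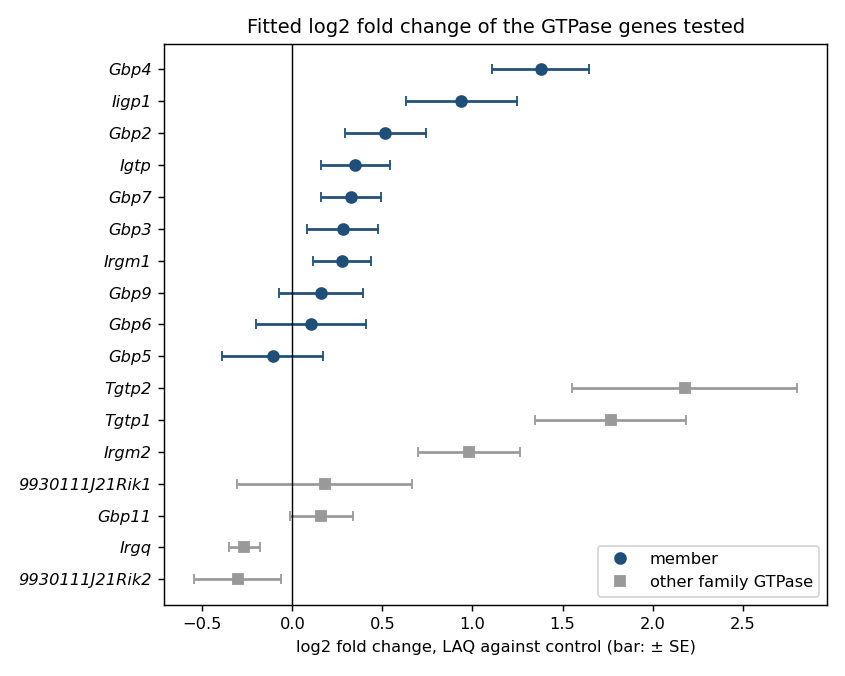
Fitted log2 fold change of the 17 GTPase genes tested, LAQ against control, with its SE; blue circles are the 10 members and grey squares the other family genes. Values run from -0.30 (9930111J21Rik2) to 2.18 (Tgtp2), and Gbp4 at 1.38 is the highest member.

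The pathway around the GTPases was described from lists drawn up with earlier results known, and edgeR called 0 genes in each of them. Of all tested genes, 4.77% were higher and 6.33% lower at an unadjusted p under 0.05 and 49.7% had a positive value, the background for the counts of every list that follows. Of the interferon gamma signalling list, 14 of 17 genes were tested, 8 had a positive value, 3 were higher and 1 lower at an unadjusted p under 0.05, and the median was 0.0043. Irf1, an interferon-induced activator of Gbp promoters, stood at a mean of 9.93 ± 0.88 CPM in control libraries and 12.4 ± 1.78 CPM with LAQ (SD, n = 4 each), with a log2 fold change of 0.32 ± 0.14 (SE). Pias1, a SUMO ligase that restrains the pathway, stood at 0.16 ± 0.06 without overlap, and Ciita, the class II transactivator, at -0.88 ± 0.37. The ligand gene Ifng had 0 reads in every library. The receptor genes Ifngr1 (0.05 ± 0.11) and Ifngr2 (0.06 ± 0.17) and the kinases Jak1 (0.05 ± 0.08) and Jak2 (0.01 ± 0.10) had values smaller than their SE.

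Of the type I interferon signalling list, 12 of 14 genes were tested, with 6 positive values, 0 at an unadjusted edgeR p under 0.05 in either direction and a median of 0.0080. Usp18, a negative regulator of the receptor, stood at 0.69 ± 0.33, the RNA sensors Ddx58 at 0.23 ± 0.22 and Ifih1 at -0.20 ± 0.31, and Irf9 at 0.10 ± 0.15 (SE). Ifnb1 had 0 reads in every library. Of the other interferon-stimulated genes, 19 of 26 were tested, with 11 positive values, 1 higher and 0 lower at an unadjusted p under 0.05, and a median of 0.06. Bst2 (tetherin) was that gene, at 0.60 ± 0.22 without overlap. Isg20, an exonuclease, stood at 0.67 ± 0.38, Ifitm3, an antiviral membrane protein, at 0.31 ± 0.19 and Isg15, a ubiquitin-like modifier, at -0.46 ± 0.30. Ifit1, a classical type I target, stood at -0.02 ± 0.24.

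The immunoproteasome and class I genes, which share interferon gamma induction with the GTPases, had 8 positive values of 13 tested, 3 higher and 0 lower at an unadjusted p under 0.05, and a median of 0.13. H2-K1 (0.62 ± 0.15, SE), H2-D1 (0.46 ± 0.12) and B2m (0.36 ± 0.12), the class I chains, were these 3, and the peptide transporter Tap1 stood at 0.37 ± 0.18. H2-D1 and Tap1 were higher with no overlap between the groups (2 of 13, beside 2.78% of all tested genes). For H2-D1 the gap was small, with control up to 251.8 CPM and LAQ from 252.2 CPM. H2-K1 and H2-D1 were called by DESeq2 (adjusted p 0.0254 and 0.0452), which called 0.837% of all genes it tested. Both have close paralogs. Of the genes that load the GTPases onto vacuoles or act with them in inflammasomes, 19 of 22 were tested, with 14 positive values and a median of 0.06. Lgals8, a galectin that marks damaged vacuoles (0.17 ± 0.08), was higher and Casp1, the inflammasome protease (-0.83 ± 0.31), lower at an unadjusted p under 0.05. The loading factors Gabarapl2 (0.13 ± 0.06, no overlap) and Atg3 (0.11 ± 0.06) came next.

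**Figure D4:**
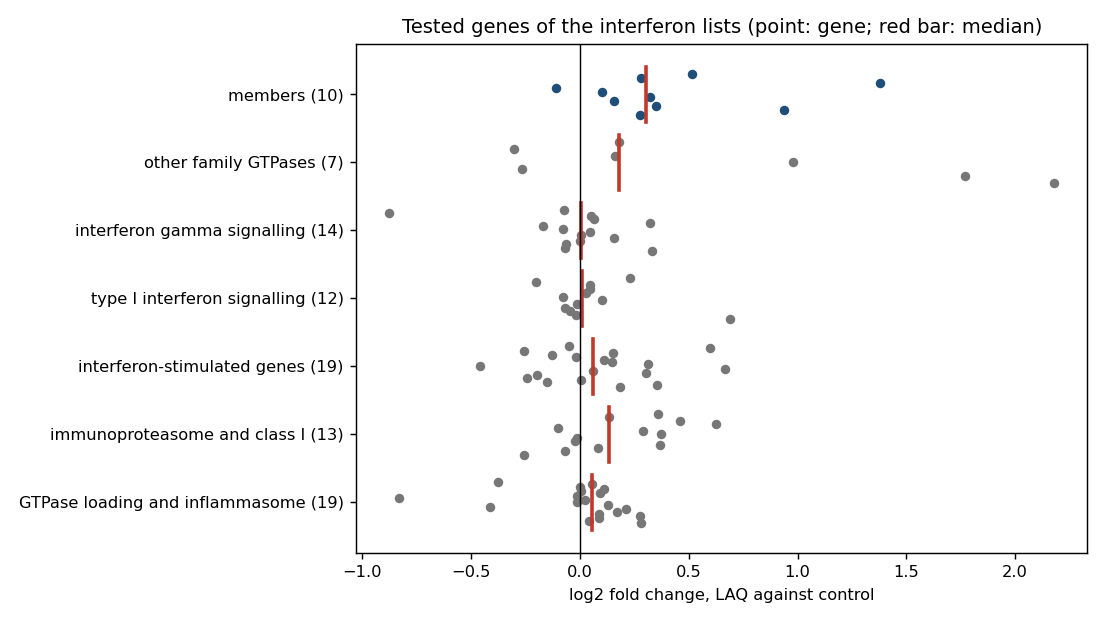
Log2 fold change, LAQ against control, of every tested gene of the members and of 6 related lists (number of genes in brackets), with the median of each as a red bar. The members' median is 0.30, and those of the 2 signalling lists lie at 0.0043 and 0.0080.

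Cell-type markers show how RNA of different cell types varied between the libraries. Summed over 8 choroid plexus markers, among them Ttr, the level was 2058, 391, 800.3 and 2517 CPM in control 1 to 4 and 3674, 1298, 1658 and 3529 CPM in LAQ 5 to 8. LAQ 5 and LAQ 8, the highest in this sum, were also the highest in the summed GTPases, and control 2 and control 3 were the lowest in both. The same libraries were highest and lowest in the immunoproteasome and class I sum. That sum was 510 to 583 CPM in control and 588 to 786 CPM in LAQ. LAQ 6 and LAQ 7 stood above control 1 and control 4 in the GTPase sum and below them in the choroid plexus sum. All 8 markers had a positive log2 fold change. With the log2 of this sum as a covariate, chosen after the data had been seen, the members' median was 0.16, Gbp4 stood at 1.11, Iigp1 at 0.80 and Gbp2 at 0.49. Under the same covariate Gbp7 stood at 0.21, Irgm1 at 0.18, Igtp at 0.15, Gbp3 and Gbp6 at 0.09, Gbp9 at 0.03 and Gbp5 at -0.16. The choroid plexus sums overlapped between the groups. The ependymal sums did not, at 26.1 to 39.7 CPM in control and 43.2 to 60.2 CPM in LAQ (8 of 8 positive). Whether choroid plexus or ependymal RNA had a part in the GTPase values was not tested.

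**Figure D5:**
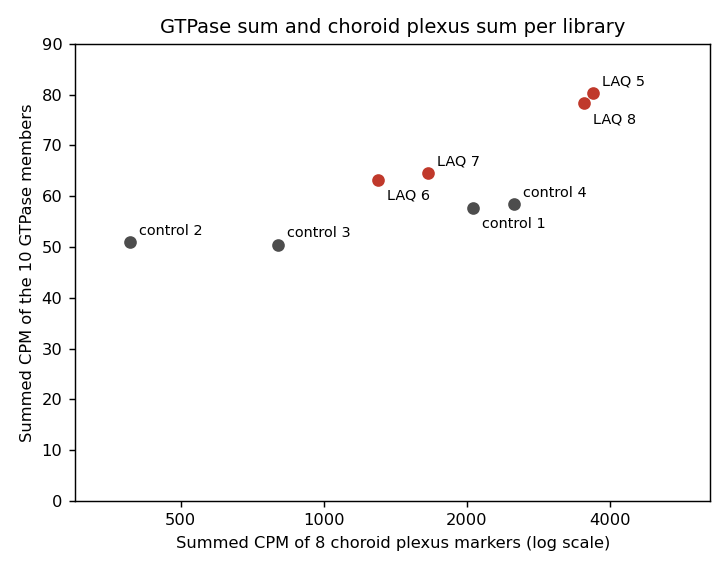
Summed level of the 10 GTPase members (vertical axis, CPM from 0) against the summed level of 8 choroid plexus markers (horizontal axis, CPM, log scale) in the 8 libraries, control in grey and LAQ in red. LAQ 5 and LAQ 8 are highest in both sums, while LAQ 6 and LAQ 7 lie above control 1 and control 4 in GTPases and below them in choroid plexus markers.

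The summed markers of immune cells overlapped between the groups. The 12 microglial markers summed to 649 to 727 CPM in control and 614 to 716 CPM in LAQ, with 3 of 12 positive, and Aif1 was lower without overlap. Border macrophage markers summed to 18.5 to 31.0 and 13.6 to 24.6 CPM (0 of 6 tested positive). Among T and NK cell markers, Cd3e had 0 to 5 reads per library, Cd3g and Cd8a at most 1, and only Cd4 and Lck passed the filter. The summed list ranged from 20.7 to 38.1 CPM in control and 8.86 to 60.0 CPM in LAQ. Markers of neutrophils, monocytes and B cells summed to 0.765 to 1.144 and 0.450 to 1.52 CPM, with Ly6g and Ms4a1 at 0. Endothelial markers, from a cell type that responds to interferon, summed to 497 to 623 CPM in control and 316 to 631 CPM in LAQ (0 of 12 positive). Mural cell markers summed to 279 to 361 and 179 to 363 CPM (0 of 10 positive). Astrocyte markers summed to 5965 to 6555 and 5703 to 6340 CPM (3 of 12 positive). Neuronal markers summed to 9701 to 10566 and 7749 to 10504 CPM (3 of 12 positive). The 12 oligodendrocyte markers summed to 12273 to 14044 CPM in control and 13010 to 16986 CPM in LAQ, with 12 of 12 positive, and their part in the GTPase values was not tested. They were the largest of the cell-type sums, ahead of neurons and astrocytes.

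Within groups, the members' mean deviation from the group mean (log2) was highest in LAQ 5 (0.17) and control 4 (0.13) and lowest in LAQ 6 (-0.17) and control 3 (-0.15). Among 12844 genes ranked over the 8 libraries, the pattern most like it belonged to Prr32 (r = 0.99), Btg1 (0.97), Gigyf2 (0.97), Vasn (0.96), Srrd (0.96), Igfbp2 (0.96), Cyb561 (0.96) and H2-D1 (0.96). These points share the libraries and their composition, and leaving out 1 library kept 1 to 5 of the 8 names, so the order is not a stable one. H2-D1 was the only gene of the 8 on one of the pathway lists.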

How the data were processed

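Poly(A) RNA of 8 corpus callosum libraries was measured, 4 per group, grouped by their titles. The authors deposited raw read counts per gene symbol and a table of normalized signal, which is the count divided by 1 size factor per library (largest relative deviation 5.1e-15). The signal was used for that check only. The submitters' processing notes name bcl2fastq 2.17.1.14, STAR 2.5.2b, HTSeq, DESeq2 1.10.1 and the build GRCm38.p3. The annotation release, strand setting, read length and handling of reads that match several genes are not given in the sources used here, so counts of near-identical paralogs may be divided or lost. No deposited column was left unused (0).

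Genes were filtered with edgeR's filterByExpr (minimum count 10, minimum total 15), scaled by TMM and tested with the quasi-likelihood method (edgeR 4.0.16, limma 3.58.1, R 4.3.3), two-sided, without covariates and with Benjamini-Hochberg adjustment over 15771 genes at a threshold of 0.05. CPM values use the TMM-scaled library size, and log2 levels a prior count of 2. Each SE is the fold change divided by the root of the F statistic. Total counts of 8790749 to 12021429 limit the precision, and Poisson intervals (95%) and the limit at a count of 0 (3 counts per library) cover counting error only. Exon lengths, positions and transcript stretches came from GENCODE M21 on GRCm38, and promoters from RefSeq on GRCm38.p6. Likeness is the Pearson r of log2 CPM deviations from the group means, among genes whose mean log2 CPM is 1 or more.

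The members and the gene lists were chosen with earlier results of these data known. The text names all members, the family genes, the 4 tested genes of smallest p in each pathway list, list genes at 0 and the 8 genes of highest likeness; Ifngr1, Ifngr2, Jak1, Jak2, Ifit1 and the cell-type genes were named in addition, after their values were seen. Alternatives were median-of-ratios scaling, library size alone, no filter, at least 1 CPM in 4 libraries, DESeq2 1.42.0, limma voom, robust estimation, 0.1 as the threshold and each library left out in turn. A gene of the interferon gamma list that the rule names is not reported here. The edgeR fit was tested on simulated counts, and the other steps were not. Figures were drawn with matplotlib 3.10.9.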

Additional observations from a re-analysis of the deposited data

Results flagged for a closer look

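Of 54 groups of 4 libraries examined, 5 had a library whose gap to the next was above Dixon's 95% critical value as a share of the group's range, a value that chance passes in about 1 in 20 groups by its definition. Gbp2 stood at 10.003 CPM in LAQ 5, above 6.97 to 7.29 CPM in the other LAQ libraries. Gbp7 stood at 13.3 CPM in LAQ 7, above 12.57 to 12.60 CPM in the other 3, a small gap in a narrow group. The type I interferon signalling genes summed to 223 CPM in control 4, above 199 to 202 CPM in the other controls. In LAQ 7 the genes of GTPase loading and inflammasomes summed to 2155 CPM, below 2372 to 2404 CPM in the other LAQ libraries, and neuronal markers to 7749 CPM, below 10127 to 10504 CPM.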

How the results depend on the processing

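The number of genes past the threshold was 0 by edgeR under either other scaling, at 1 CPM in 4 libraries, with robust estimation, at a threshold of 0.1, with voom and with the choroid plexus covariate (unadjusted p under 0.05 for 1153 to 1787 genes in these fits), but 25 without a filter and 129 with DESeq2. Leaving out 1 library gave 0 to 339 genes, and LAQ 7 was the library behind the 339. Of the family and pathway genes outside the members, DESeq2 called 2 (H2-K1 and H2-D1), beside 0.837% of all genes it tested. Leaving out 1 library gave 0 to 1 (H2-D1, without LAQ 7), beside 2.13% of all genes in the fit without LAQ 7. By edgeR, 7 genes of the family list and 14, 12, 19, 13 and 19 of the pathway lists were tested. The lists were drawn up with earlier results known, so nothing is read from these counts. Of the members' log2 fold changes, 4 alternative values changed sign. Gbp5 ranged from -0.28 to 0.025 on leaving out 1 library and turned positive without control 1 (0.01) or control 2 (0.025). Gbp6 ranged from -0.050 to 0.33 and turned negative without control 3 (-0.01) or LAQ 7 (-0.050); the cause was not tested. The members' median stayed between 0.22 and 0.39 on leaving out 1 library, and was 0.16 with the choroid plexus covariate, which was chosen after seeing the data. Of the 8 genes most like the members, 1 to 5 remained among the first 8 when 1 library was left out. No paired analysis was possible because the labels name no pairing. Gbp4, Gbp5, Gbp6 and Iigp1 had 10 to 43 reads in a control library, so counting error is largest for these scarce members.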
